A study of Mus musculus with 8 samples.

Results

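The 7 mRNAs Utf1, Mtap1s, Zbtb45, Ccdc61, Dus3l, Echdc2 and Arhgap8 had very few reads in CLIP libraries of LIN28A. They were picked from the 7820 transcripts of the deposited CLIP table as being among those with the lowest CLIP exon counts relative to untreated poly(A) RNA with all 3 antibodies. The members are 7 genes, each with 1 RefSeq transcript in the CLIP table, in the poly(A) table of 16456 transcripts and in the ribosome footprint table of 7936 transcripts. Because CLIP counts over untreated poly(A) counts chose them, their CLIP ratios are given as a description, with no test.

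All libraries come from A3-1, a mouse embryonic stem cell line grown with serum and LIF. For CLIP-seq, RNA was fixed to LIN28A by ultraviolet light, pulled down with an antibody and sequenced. Cells for it had no siRNA, with 1 library for each of 3 LIN28A antibodies: the monoclonals 35L33G and 2J3 and a polyclonal antibody. Poly(A) RNA-seq covered untreated cells, cells given siRNA against luciferase (siLuc) and cells given siRNA against Lin28a (siLin28a), both siRNAs for 48 h. Ribosome profiling, which sequences the RNA fragments protected by ribosomes (footprints), covered siLuc and siLin28a only. Every condition has 1 library, so differences between siRNA conditions have no replicate check. Nothing in the labels says that the 3 CLIP libraries came from separate cultures, so their spread may be technical. No CLIP library from a control antibody was analysed here.

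LIN28A, a cytoplasmic RNA-binding protein present in early embryonic cells, is best known for binding let-7 precursors and blocking their processing. It also binds many mRNAs, in coding sequence and in 3′ UTRs, and has been studied as a regulator of the translation of mRNAs read at the endoplasmic reticulum. The 7 depleted mRNAs encode proteins of varied function. Utf1 encodes a chromatin-associated transcription factor of undifferentiated embryonic cells. Zbtb45 encodes a BTB zinc finger protein. Mtap1s, now named Map1s, encodes a microtubule-associated protein, and Ccdc61 a coiled-coil protein of the centrosome. Dus3l encodes an enzyme that makes dihydrouridine in tRNA, Echdc2 a mitochondrial protein of the enoyl-CoA hydratase family, and Arhgap8 a GTPase-activating protein.

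Total counts were 7698479 to 8027670 for the CLIP libraries, 7475174 to 9605641 for poly(A) and 5980673 to 7570209 for footprints. Lin28a poly(A) RNA, the check of the siRNA, was 465 CPM (counts scaled to the library total) in untreated cells, 354 in siLuc cells and 118 in siLin28a cells, or 33.4% of the siLuc level. The footprint table has its own poly(A) tally, with 398 Lin28a counts in siLuc and 223 in siLin28a cells. There the siLin28a level by CPM was 0.438 times that of siLuc. All 8 embryonic stem cell markers were present in every poly(A) library, with Pou5f1 at 863 to 1055 RPKM and a summed level of 2565 to 3407. RPKM is the authors' count scaled to exon length in kilobases and to the library total. Of 5 fibroblast markers 4 were measured, none at 0, with a summed level of 97.9 untreated, 157 with siLuc and 164 with siLin28a. Most of that sum was Vim, Thy1 was at 13.9, 13.4 and 6.12 RPKM in the same order, and Col1a1 and Col1a2 were at or below 0.368 RPKM. Markers of primitive endoderm summed to at most 0.704 RPKM (Sox7 at 0 untreated, Gata6 at 0 with siLuc) and of mesoderm to at most 1.32 (Mesp1 at 0 untreated). Neural markers summed to 24.9 untreated, 26.9 with siLuc and 30.7 with siLin28a, nearly all of it Tubb3. The sums of all 5 marker lists were highest with siLin28a, and their part in the siRNA differences below was not tested. In these bulk samples, a lower level in each cell and fewer cells with the mRNA cannot be told apart.

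The siRNA differences below rest on a single duplex per target, so both are shown. Strands run 5′ to 3′ without their 2 deoxythymidines, and capitals mark bases 2 to 8, the seed of a strand when it acts as guide. Which strand was meant as the guide is not given in the sources used here.
siLin28a strand 1: aUGUUCUUcccuuuuggcc
siLin28a strand 2: gGCCAAAAgggaagaacau
siLuc strand 1: uCGAAGUAcucagcguaag
siLuc strand 2: cUUACGCUgaguacuucga

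Utf1 combined one of the higher mRNA levels of the table with few CLIP reads. It had 200 CLIP counts with 35L33G, 170 with 2J3 and 112 with the polyclonal antibody, against 5674 counts in untreated poly(A) RNA. In CPM these are 26.0 (95% counting interval 22.5 to 29.8), 21.7 (18.5 to 25.2) and 14.0 (11.5 to 16.8) against 612 (597 to 629). All 3 CLIP libraries lay far below the input, and the polyclonal library was the lowest. On the log2 scale, with TMM scaling, the CLIP to poly(A) ratio was −4.63 ± 0.45 (SD, n = 3), where the median of all transcripts was −0.03. Intervals on counts here and below cover counting error only.

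The regulatory and cytoskeletal members had fewer reads in all. Mtap1s had 61, 51 and 36 CLIP counts with 35L33G, 2J3 and the polyclonal antibody against 1057 in untreated poly(A) RNA, a log2 ratio of −3.89 ± 0.40 (SD, n = 3). Zbtb45 had 16, 22 and 17 against 367, at −3.75 ± 0.24. Ccdc61 had 32, 30 and 8 against 394, at −3.73 ± 1.11, the widest spread of the 7. Its polyclonal library held a lower level than either monoclonal library, 0.997 CPM against 4.16 and 3.82. Arhgap8 had 31, 22 and 31 against 421, at −3.35 ± 0.28.

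The tRNA and metabolic enzymes come last. Dus3l had 69, 80 and 60 CLIP counts against 1135, a log2 ratio of −3.48 ± 0.22 (SD, n = 3). Echdc2 had 83, 57 and 62 against 1018, at −3.38 ± 0.30. Linear depletion ran from 10.2-fold for Arhgap8 to 24.8-fold for Utf1. With siLuc in place of untreated as input, the log2 ratio was −3.89 for Utf1, −3.19 for Mtap1s and −2.64 for Arhgap8, and without the polyclonal library that of Ccdc61 was −3.09. The median SD over antibodies was 0.30 for the 7 genes and 0.15 for all transcripts. Relative to the pooled monoclonal libraries, the polyclonal log2 level was −0.77 for Utf1 (95% counting interval −1.09 to −0.46), −0.67 for Mtap1s (−1.27 to −0.13) and −1.92 for Ccdc61 (−3.27 to −0.93). For the other 4 genes this interval spanned 0.

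**Figure D1:**
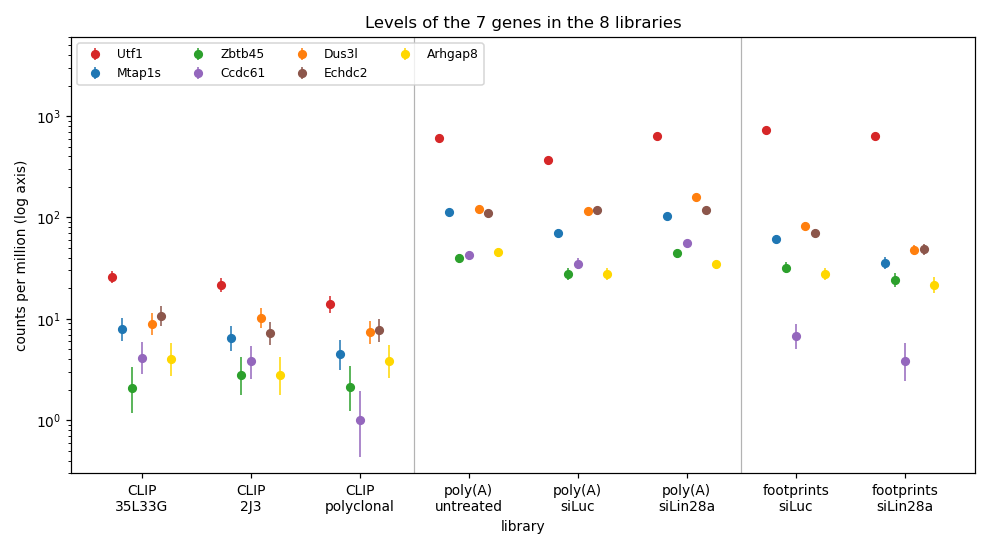
CPM of the 7 genes (log axis) in each of the 8 libraries, with bars for the 95% counting interval. Every gene is lower in the 3 CLIP libraries than in the 3 poly(A) libraries, and Utf1 is the highest of the 7 in each library, at 14.0 to 26.0 in CLIP and 371 to 637 in poly(A).

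The choice of these 7 left out others as low. Among 7197 transcripts with at least 200 untreated counts they ranked 2 (Utf1), 5 (Mtap1s), 8 (Zbtb45), 9 (Ccdc61), 13 (Dus3l), 15 (Echdc2) and 17 (Arhgap8) from the bottom. The 10 other transcripts down to that rank were Tpt1, Zfp414, 5730559C18Rik, the non-coding 2810008D09Rik and Mirg, Apbb3, Jund, Map3k12, Rgs19 and Tmem55b. Just inside the boundary stood Arhgap8 at −3.35, and just outside it Mapk7 at −3.33 and Hspb8 at −3.32, which the SDs over antibodies do not separate. Zfp414 and 5730559C18Rik had SDs of 3.52 and 2.16, with 0 and 3 polyclonal counts. Poly(A) tallies for the 7 members in the CLIP table were 0.81 to 0.91 times those of the untreated column, so both columns give them similar input.

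On the genome (mm9, positions as in the deposited table) Utf1 (NM_009482) spans chromosome 7, 147129755 to 147131011, and has 2 exons. On the same chromosome lie Zbtb45 (NM_001024699) from 13591015 to 13595149, and Ccdc61 (NM_001033314) from 19476233 to 19495753. Mtap1s (NM_173013) lies on chromosome 8 from 73429873 to 73441428, Dus3l (NM_144858) on chromosome 17 from 56904174 to 56909516, and Echdc2 (NM_026728) on chromosome 4 from 107838071 to 107851913. Arhgap8 (NM_001164627) spans chromosome 15, 84550482 to 84602637. In the RefSeq gene table supplied (GRCm38.p6) no other gene overlapped the first 6 genes, and the lncRNA Gm20556 overlapped Arhgap8. Whether the counting used strand is not given in the sources used here, so reads of Gm20556 cannot be told apart from those of Arhgap8.

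What the 7 transcripts share in structure is a short non-coding part, the sum of their UTRs. It measured 140 bases in Utf1, 249 in Arhgap8, 352 in Mtap1s, 387 in Echdc2, 390 in Dus3l, 474 in Ccdc61 and 577 in Zbtb45. All 7 lay below the median of 1199 bases over 7733 coding transcripts of the CLIP table, and 6 lay below the lower quartile of 570 bases, Zbtb45 just above it. Coding length showed no such shift: 891 (Echdc2) to 2922 bases (Mtap1s), with a median of 1536 against 1482 over all coding transcripts. Coding sequence made up 69.7% (Echdc2) to 89.2% (Mtap1s) of these transcripts, all above the median of 56.6%. Exon number ranged from 2 in Utf1 and 3 in Zbtb45 to 14 in Ccdc61, with the same median of 10 as all coding transcripts. A short non-coding part was not common to all transcripts this depleted. Down to the rank of Arhgap8 by untreated input, it measured 230 bases in Zfp414, 375 in Tpt1, 601 in Apbb3 and 806 in Rgs19. It was longer in 5730559C18Rik (996), Jund (1852), Tmem55b (1898) and Map3k12 (2861).

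Short non-coding parts went with lower CLIP ratios in the rest of the table too. The other 1739 coding transcripts with 140 to 577 non-coding bases had a median log2 CLIP ratio of −0.45, against −0.03 for all 7726 coding transcripts without the members. The 5th percentile of that length class was −2.35. Over 5 equal groups ordered by non-coding length the median went from −0.42 in the shortest through −0.41, −0.13 and 0.14 to 0.53 in the longest. The Spearman rank correlation across the 7726 transcripts was 0.27 for non-coding length and 0.01 for coding length. These are descriptions across transcripts, which share the same 4 libraries and are not replicates.

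**Figure D2:**
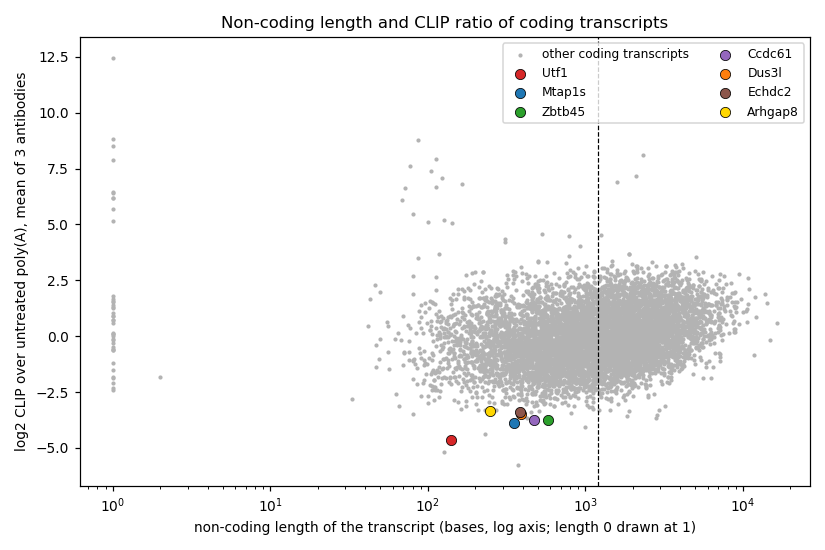
Log2 CLIP ratio over untreated poly(A) (mean of 3 antibodies) against the non-coding length of each coding transcript (bases, log axis); the dashed line is the median of 1199 bases. The 7 genes sit at the lower edge of the cloud and left of the line, from 140 to 577 bases.

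Upstream of the genes no such feature stood out. A window of 300 bases around the transcription start (250 before, 50 after) was present for 6 of the 7 genes in the RefSeq promoter table (GRCm38.p6). GC content was 51.0% (Ccdc61) to 62.0% (Utf1) with a median of 58.8%, where 8023 windows of genes in the CLIP table had a median of 61.7%. The windows of the 6 genes held 17 to 24 CG dinucleotides with a median of 18.5, against a median of 22 for the 8023 windows.

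Abundance did not unite the 7 genes. In untreated cells, on the authors' RPKM scale, Utf1 was at 528, Echdc2 at 86.0, Dus3l at 53.2, Mtap1s at 34.8, Arhgap8 at 29.8, Ccdc61 at 21.2 and Zbtb45 at 18.5. Utf1 lay at percentile 99.5 of the transcripts in the CLIP table and Zbtb45 at 41.2. With siLuc, a library not used to choose them, they stood at percentiles 98.7 (Utf1) to 28.4 (Zbtb45), and the order was kept except that Arhgap8 (18.3 RPKM) and Ccdc61 (17.4 RPKM) came close.

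The few CLIP reads of all 7 members lay mostly in coding sequence, and for Utf1 the share was below its own poly(A) share. The coding share is coding counts over coding plus 3′ UTR counts. For Utf1 it was 74.5% with 35L33G (149 of 200 counts, exact binomial 95% interval 67.9 to 80.4), 72.9% with 2J3 (65.6 to 79.5) and 72.3% with the polyclonal antibody (63.1 to 80.4). In the poly(A) tally that accompanies the CLIP counts, a column that names no condition, it was 95.8% (95.2 to 96.3). All 3 antibodies placed a larger part of the Utf1 reads in its 3′ UTR than poly(A) RNA did, and their intervals do not reach the poly(A) value. Pooled over antibodies and by total counts, the log2 ratio to that column was −5.23 in coding sequence (interval −5.39 to −5.07) and −2.18 in the 3′ UTR (−2.51 to −1.86). Both regions of Utf1 were low, coding sequence more so. Coding sequence held 4932 of its 5163 poly(A) exon counts, so the low coding ratio follows largely from the choice on exon counts.

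In the other members the mean coding share over antibodies was higher. Arhgap8 had a share of 100% with every antibody, with 0 counts in the 3′ UTR among 80 CLIP counts in coding sequence, against 93.3% in the poly(A) column. Mtap1s was at 99.3% ± 1.13 (SD, n = 3) against 94.4%, and Dus3l at 96.0% ± 6.89 against 97.6%. Echdc2 was at 91.9% ± 7.90 against 75.7%, Zbtb45 at 90.9% ± 15.7 against 77.4%, and Ccdc61 at 90.1% ± 13.3 against 92.7%. For Echdc2 each antibody gave a higher share than poly(A), though with 2J3 the interval (72.1 to 92.5) included the poly(A) value. Zbtb45 and Ccdc61 rest on 8 to 24 such counts per library, too few to order them. Exon counts in neither region are left out of the share. For Ccdc61 with 35L33G, 20 of 32 exon counts were coding and 1 lay in the 3′ UTR. With 2J3 these were 24 of 30 and 0, and with the polyclonal antibody 6 of 8 and 2. In the poly(A) column 281 of 354 Ccdc61 exon counts were coding and 22 lay in the 3′ UTR. The median CLIP share was 91.9% for the 7 genes and 69.7% for 7635 coding transcripts with at least 20 region counts in each library. In poly(A) RNA the medians were 93.3% and 73.3%. Taken gene by gene, CLIP share minus poly(A) share had a median of 4.90 points for the 7 genes, from −22.55 to 16.21. For the 7635 coding transcripts that median was −2.17 points.

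The next comparison asks how these mRNAs differed after Lin28a siRNA. The siLuc and siLin28a libraries did not choose the members, while the untreated library did. Utf1 was at 612 CPM in untreated cells, 371 in siLuc cells (95% counting interval 357 to 385) and 637 in siLin28a cells (621 to 653). Of the 3 libraries siLuc held the lowest level. The choice of the members favours high untreated counts, so which library is the unusual one is not read from this order. The log2 ratio of siLin28a to siLuc was 0.78 (0.71 to 0.84), and to untreated 0.06 (0.00 to 0.11).

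Mtap1s in the same 3 libraries was at 114, 70.8 and 102 CPM, a siLin28a to siLuc log2 ratio of 0.53 (counting interval 0.38 to 0.69). Zbtb45 was at 39.6, 27.6 and 44.3 in the same order, at 0.68 (0.44 to 0.93). In both, as in Utf1, the siLuc library was the lowest, and Mtap1s was highest in untreated cells. Ccdc61 was at 42.5, 34.9 and 55.6, at 0.67 (0.45 to 0.89), and Dus3l at 123, 116 and 158, at 0.44 (0.32 to 0.57). For these 2 genes siLin28a was the highest of the 3 libraries. Echdc2 barely differed, with 110, 119 and 119 CPM and a log2 ratio of −0.00 (−0.13 to 0.12). Arhgap8 was at 45.4, 28.0 and 34.5, highest untreated, with 0.30 (0.05 to 0.56) against siLuc.

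Of the 7, 6 were higher with siLin28a than with siLuc, and 3 of them (Utf1, Zbtb45, Ccdc61) by at least 1.5-fold. Of 8859 transcripts with at least 200 counts in the 2 libraries together, 7.62% were higher by this much and 49.8% were above 0. The median log2 ratio was 0.53 for the 7 genes and −0.00 for all transcripts, whose spread (scaled median absolute deviation) was 0.36. Against the untreated library the median of the 7 was 0.11, with none at least 1.5-fold higher (7.79% of all transcripts). There Mtap1s was at −0.16 (−0.28 to −0.03) and Arhgap8 at −0.40 (−0.61 to −0.19), the opposite direction from the ratio to siLuc. A choice by low CLIP over untreated counts favours high untreated counts, so nothing is read from these ratios to untreated. Ccdc61 was at 0.39 (0.20 to 0.58) and Dus3l at 0.36 (0.25 to 0.47).

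The siLuc library itself was below untreated for 6 of the 7, with log2 ratios of −0.72 for Utf1, −0.70 for Arhgap8, −0.69 for Mtap1s, −0.52 for Zbtb45, −0.28 for Ccdc61, −0.08 for Dus3l and 0.11 for Echdc2. Of these, 3 lay at least 1.5-fold below, against 4.07% of all transcripts. The untreated library that chose the members is the denominator here, so this count follows in part from the choice. The ratio to siLuc has no library in common with that choice, but siLuc enters both siRNA comparisons.

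Footprint levels were lower after Lin28a siRNA where most mRNA levels were higher. Utf1 footprints were at 728 CPM in siLuc cells (709 to 748) and 630 in siLin28a cells (610 to 650), a log2 ratio of −0.21 (−0.27 to −0.15). Mtap1s was at 61.3 and 35.4, at −0.79 (−1.03 to −0.55), and Dus3l at 82.7 and 47.8, at −0.79 (−0.997 to −0.586). Ccdc61 had only 51 and 23 footprint counts, 6.74 and 3.85 CPM, at −0.79 (−1.59 to −0.07). All 7 genes had a lower footprint CPM with siLin28a, as did 64.8% of 7799 transcripts.

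Echdc2 footprints were at 70.7 CPM with siLuc and 48.5 with siLin28a, a log2 ratio of −0.54 (−0.75 to −0.33). Zbtb45 was at 32.1 and 24.2, at −0.40 (−0.71 to −0.10), and Arhgap8 at 27.9 and 21.6, at −0.37 (−0.70 to −0.05). By total counts the median of 7799 transcripts with at least 50 counts in each assay lay at −0.23, and 27.2% were at least 1.5-fold lower, against 3 of the 7 genes (Mtap1s, Ccdc61, Dus3l). Relative to that median, Utf1 was at 0.02 and the other 6 were at −0.56 (Ccdc61) to −0.14 (Arhgap8).

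Ribosome density, footprints relative to mRNA, was lower with siLin28a for each of the 7 genes. It was computed within the footprint table, whose poly(A) tallies were 0.61 (Echdc2 with siLuc) to 1.01 (Arhgap8 with siLin28a) times those of the poly(A) table. Utf1 had 5512 footprints and 2653 poly(A) counts with siLuc, and 3765 and 5888 with siLin28a. Its log2 density change was −0.79 relative to the median transcript (95% counting interval −0.88 to −0.70). The largest differences were in Ccdc61 at −1.13 (−1.87 to −0.39), Dus3l at −1.12 (−1.36 to −0.88) and Mtap1s at −1.07 (−1.35 to −0.79). Zbtb45 was at −0.87 (−1.28 to −0.46), Arhgap8 at −0.46 (−0.86 to −0.06) and Echdc2 at −0.41 (−0.67 to −0.15). The 2 smallest changes were in the 2 genes with the smallest siLin28a to siLuc mRNA ratios. Density change is the footprint ratio minus the mRNA ratio, so this match follows in part from the computation.

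Of the 7, 5 were at least 1.5-fold below the median transcript in density change, against 17.0% of 7799 transcripts. The median of the 7 was −0.87, and the spread over all transcripts was 0.62. Dus3l, Ccdc61 and Mtap1s were within the lowest 2.67% of transcripts, and Arhgap8 and Echdc2 at percentiles 22.4 and 25.4. Density contains the same siLuc and siLin28a poly(A) libraries as the mRNA ratio, so the siLuc mRNA level enters both. No footprints of untreated cells were analysed here, so density could not be set against the untreated state.

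**Figure D3:**
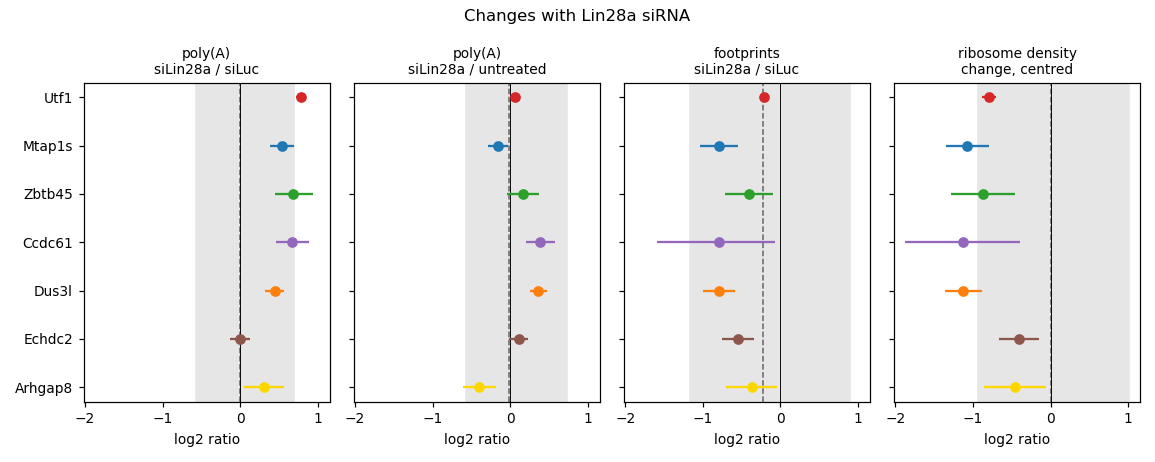
Log2 ratios of the 7 genes for poly(A) RNA with siLin28a over siLuc and over untreated, for footprints, and for ribosome density change; bars are 95% counting intervals, grey bands the 5th to 95th percentile of all transcripts and dashed lines their median. Poly(A) ratios to siLuc reach 0.78 while those to untreated scatter around 0.11, and all 7 density changes lie between −1.13 and −0.41.

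Both siRNA differences varied with the CLIP ratio across the whole table. The 6823 other coding transcripts used here had at least 200 untreated counts and also a measured density change. They were ordered by CLIP ratio and cut into 10 equal groups. In the lowest group (683 transcripts, median CLIP ratio −2.03) the median poly(A) log2 ratio to siLuc was 0.22 and 79.1% were above 0. In the highest group it was −0.13 and 35.0% were above 0. The siLuc to untreated ratio ran the opposite way, with medians of −0.20 in the lowest group and 0.13 in the highest. That ratio shares the untreated library with the CLIP ratio, and its part in the poly(A) differences was not tested. The median density change was −0.39 in the lowest group and 0.72 in the highest. The Spearman rank correlation across these transcripts was 0.47 between CLIP ratio and density change and −0.33 between CLIP ratio and poly(A) ratio. The CLIP ratio shares no library with these 2 measures, but transcripts share all libraries and are not replicates. At the depleted end, Arhgap8 and Echdc2 have density changes close to the median of the lowest group, and the other 5 are lower. Of the lowest group, 10% were below −0.99, as were Mtap1s, Dus3l and Ccdc61.

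**Figure D4:**
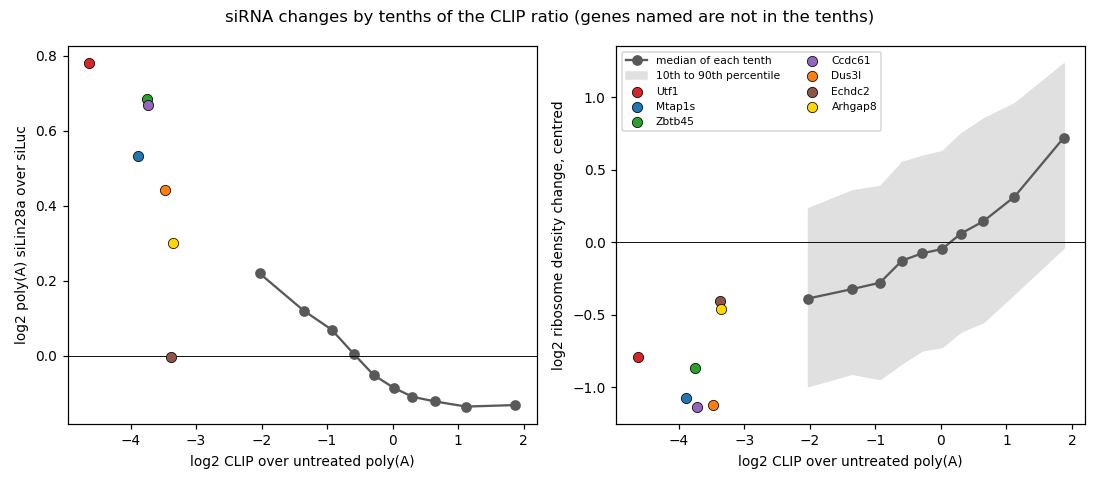
Median poly(A) ratio of siLin28a over siLuc (left) and median ribosome density change (right, with the 10th to 90th percentile) for 10 equal groups of 6823 transcripts ordered by CLIP ratio, with the 7 genes as coloured points. The medians go from 0.22 to −0.13 on the left and from −0.39 to 0.72 on the right, and 6 of the 7 genes lie above the lowest group's median on the left.

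Ribosome density in the siLuc cells ranged widely among these mRNAs. In that control, relative to the median transcript, log2 density was 1.31 for Utf1 (counting interval 1.24 to 1.38) and 1.02 for Zbtb45 (0.72 to 1.31). Ccdc61 was at −1.90 (−2.34 to −1.47), at percentile 4.53 of all transcripts. The other 4 lay between −0.02 (Dus3l) and 0.26 (Arhgap8). Of the 7, 2 genes were at least 1.5-fold above the median, against 30.0% of all transcripts, and 1 gene was as far below, against 29.8%. The median of the 7 was 0.23, which turned to −0.10 in siLin28a cells.

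Relatives of the members by name were not depleted alike. The families were Zbtb, Arhgap, Dus, Echdc, microtubule-associated proteins and Ccdc, all without the members themselves. Of 89 relatives measured by CLIP, 23 were called lower in CLIP than in untreated poly(A) RNA (25.8%), 30 higher and 36 neither, using the quasi-likelihood F test of edgeR, adjusted by Benjamini-Hochberg over all 7820 transcripts. Over all transcripts 33.3% were called lower and 34.6% higher. The median log2 ratio was −0.06 for the relatives, near the −0.03 of all transcripts. The lowest relative was Zbtb17, which encodes the MYC partner MIZ-1, at −2.74 ± 0.20 (SD, n = 3; adjusted p = 5.42e-07, edgeR). With total counts in place of TMM, 35 of the 89 were called lower, and over all transcripts 3605 were called lower and 1984 higher, against 2604 and 2702 with TMM.

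Among 21 other genes with a Zbtb symbol 5 were called lower and 7 higher. The highest were Zbtb8os at 1.90 ± 0.46 (SD, n = 3) and Zbtb41 at 1.82 ± 0.14. Symbols alone set this list, and whether Zbtb8os encodes a BTB zinc finger protein was not checked. Among 15 Arhgap genes 3 were lower and 5 higher, from Arhgap1 at −1.60 ± 0.22 to Arhgap5 at 2.61 ± 0.13. The family name thus gave no common direction in either case. Of 9 microtubule-associated protein genes 4 were lower and 2 higher, from Mtap7d1 at −1.66 ± 0.38 to Mtap7d3 at 1.26 ± 0.40. Mtap1a and Mtap1b, which encode the larger relatives of MAP1S, were at −0.62 ± 0.25 (adjusted p = 0.0327, edgeR, 3 CLIP libraries) and 0.20 ± 0.07 (adjusted p = 0.0775). Of the 2 other measured dihydrouridine synthase genes, Dus1l was at −0.95 ± 0.02 (adjusted p = 5.27e-06, edgeR) and Dus2l, not called, at −0.67 ± 0.24 (adjusted p = 0.16). Of 42 Ccdc genes, a group joined by a name rather than a function, 10 were lower and 16 higher, from Ccdc97 at −2.18 ± 0.79 to Ccdc47, an endoplasmic reticulum membrane protein gene, at 2.67 ± 0.10. No other Echdc gene was in the CLIP table.

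For Utf1 the comparison was with 25 other factors of embryonic stem cells, all measured. Of these, 13 were called lower in CLIP, 8 higher and 4 neither (52.0% lower, against 33.3% of all transcripts), with a median log2 ratio of −0.60. Lowest were Klf2 at −2.34 ± 0.14 (SD, n = 3; adjusted p = 5.97e-13, edgeR) and Nanog at −2.27 ± 0.14 (adjusted p = 4e-12, edgeR). Pou5f1 was at −1.45 ± 0.08, while Sox2 at 0.76 ± 0.07 and Tet1 at 1.76 ± 0.02 were called higher. Their median poly(A) log2 ratio of siLin28a to siLuc was 0.23 and their median density change −0.37, against 0.78 and −0.79 for Utf1.

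**Figure D5:**
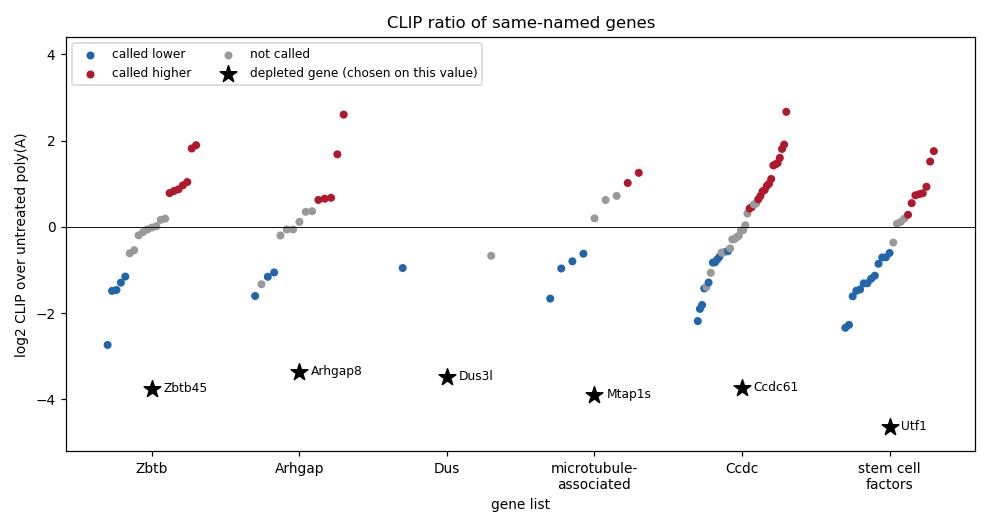
Log2 CLIP ratio over untreated poly(A) (mean of 3 antibodies) for genes sharing a family name with a member and for 25 stem cell factors, coloured by edgeR call; stars mark the 6 members that have measured relatives or a list. The stars were chosen on the plotted value, and among the points calls in both directions occur in each list except Dus.

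Over all 8 libraries the closest non-members by profile were few. Profiles were log2 CPM centred on each transcript's own mean, compared by Euclidean distance over 8 libraries among 7181 transcripts in all 3 tables. Jak3, a cytokine receptor kinase gene, was closest to both Echdc2 (distance 0.57) and Dus3l (0.62). Bcat2 was closest to Arhgap8 (0.60), Ppp2r3d to Mtap1s (0.66) and Ptov1 to Zbtb45 (0.83). Ccdc61 and Utf1 had no close counterpart, the nearest being Src (1.73) and Comtd1 (1.94). These 6 neighbours had CLIP log2 ratios of −3.66 (Ppp2r3d) to −2.09 (Src). Density change was −0.85 (Ppp2r3d) to −0.49 (Src) in 5 of them and 0.50 in Comtd1, on the other side from Utf1. The CLIP, poly(A) and footprint libraries all entered the distance, so low CLIP ratios and negative density changes follow in part from the matching. In the lowest of the 10 groups ordered by CLIP ratio, 78.5% of transcripts had a density change below 0.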

How the data were processed

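The deposited tables hold raw counts per RefSeq transcript and RPKM values. RPKM equalled count over exon length and column total in the deposited poly(A) table. GSNAP, bedtools and the build mm9 are named per the submitters' processing notes, without roles; how reads were assigned is not given in the sources used here. Members and lists were chosen with earlier results of these data known. A further 18 sample columns were left out.

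CLIP calls used edgeR 4.0.16 under R 4.3.3, with TMM scaling, the quasi-likelihood test and filterByExpr (0 of 7820 transcripts removed), 3 CLIP libraries against untreated poly(A), whose single library is assumed to vary like them. The threshold was an adjusted p of 0.05. DESeq2 1.42.0 was an alternative. In data simulated for that comparison over 7820 transcripts, 42.0% of 1.5-fold and 66.0% of 2-fold changes were recovered, and 5.00% of calls were unchanged transcripts. The simulation changed 50 transcripts at each fold and gave the input the same dispersion as the CLIP libraries. In the real data 33.3% of transcripts were called lower and 34.6% higher, so the simulated shares need not hold there. The siRNA ratios are log2 CPM ratios with 0.5 counts added and exact Clopper-Pearson intervals (levels: exact Poisson; density: normal approximation). The 1.5-fold limit was set with values known. Named genes are the members, their name families and factor list (highest, lowest and small families in full), rank neighbours and the nearest profile per member.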

Additional observations from a re-analysis of the deposited data

How the results depend on the processing

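No paired analysis was possible because no condition has replicates that share a number across groups. Over all transcripts, those called lower numbered 2604, from 2428 (siLuc as input) to 3605 (total counts) otherwise, and 2474 to 2589 without each antibody in turn. The relatives called lower numbered 23, 19 to 22 without each antibody, and 35 with total counts, which put the median transcript at −0.40. The members' CLIP ratios were negative under every alternative run, the highest being −2.64 for Arhgap8 with siLuc as input. Every alternative reuses CLIP counts that chose the members, so this sign follows from the choice and is no check of it. With untreated in place of siLuc, the median poly(A) ratio of the 7 genes was 0.11 in place of 0.53, Mtap1s turned to −0.16 and Arhgap8 to −0.40; the cause was not tested. The median basal density was 0.48 with poly(A) table counts and −0.10 in siLin28a cells, against 0.23. The median density change stayed between −1.08 (not centred) and −0.85 (pseudocount of 5). The median footprint ratio was −0.54, and −0.31 with TMM. Depth limits Ccdc61 most, with 8 polyclonal CLIP counts and 23 siLin28a footprints.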

Other observations

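Ranked instead by the poly(A) tally that accompanies the CLIP counts, 46 other transcripts stood among or within 5 places after the 7 genes in 7249 with at least 200 such counts. For 16 of them that column held over 1.5 times the untreated count of the poly(A) table, so their input is uncertain. These were the ribosomal protein genes Rps2, Rps13, Rpl7a, Rpl35 and Rpl41, the chaperone genes Hspa8 and Hspb1, the glycolytic genes Eno1, Pgam1 and Pgk1, and Tpt1, Bex4, Snrpg, Gm5506, Taf10 and H3f3a. Pgam1, for example, had 414 counts in that column and 48 in the untreated column. A further 2 were the non-coding 2810008D09Rik and Mirg.

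The other coding transcripts among the 7 were Zfp414, Ppp2r3d, 5730559C18Rik, Ppdpf, Jund, Apbb3, Krt17, Rgs19, Hspb8, Mapk7, Pdxp, Gapdh, Rps16, Polm, 2410002F23Rik, Adrm1, Ndor1, Acd, Gtsf1l, Acaa1a, Troap, Rpl38 and Fancg. Of these 23, 20 had a siLin28a to siLuc poly(A) log2 ratio above 0, with a median of 0.40, from −0.17 (Acaa1a) to 1.03 (Polm). Their median non-coding length was 505 bases. Just past Arhgap8 in this order came Jak3, Ucp2, 2410002I01Rik, Pgp and Deaf1, of which 4 had a poly(A) ratio above 0 and Deaf1 stood at −0.25. For comparison, 49.8% of the 8859 transcripts were above 0, as were 79.1% of the lowest of the 10 groups ordered by CLIP ratio.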
